A study of Homo sapiens with 8 samples.

Results

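The genes described here are 44 direct targets of the tumour suppressor p53 that are less studied than CDKN1A, MDM2 or BAX. They were chosen by name from a fixed list of gene symbols that was drawn up with earlier results of these data known. Counts over the list below are therefore a description only. The deposited count table of 25369 genes held all 44. All 44 also passed the filter on low counts and were among the 15879 genes tested. Expression was measured by sequencing of polyadenylated RNA in CHP212, a human neuroblastoma cell line. The 4 groups were wild type cells given vehicle (WT DMSO), wild type cells given Nutlin-3a (WT Nutlin-3a), FAM193A knockout cells given vehicle (KO DMSO) and FAM193A knockout cells given Nutlin-3a (KO Nutlin-3a). The vehicle was 0.2% DMSO, Nutlin-3a was used at 10 uM, and both were applied for 12 h to cells grown in serum-containing medium. Each group had 2 libraries, which the series describes as independent biological replicates. The knockout is represented by cells under 1 name, and the labels do not say whether they are a clone or a pool. A difference between the genotypes therefore cannot be told apart from a difference between these cell populations.

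p53 is a transcription factor that is kept scarce by MDM2, a ubiquitin ligase that binds p53, blocks its activity and marks it for destruction. Nutlin-3a occupies the pocket of MDM2 that holds p53, so p53 accumulates without DNA damage and switches on genes that carry its response element. The best known of these genes halt the cell cycle or start apoptosis, and many others act in RNA decay, lipid handling, signalling or membrane traffic. FAM193A is the gene that the labels name as knocked out.

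The promoter windows of the members were searched for the canonical p53 response element, because a match near the start site is the feature that direct targets could share in this stretch of DNA. The windows came from RefSeq on GRCh38.p14 and ran from 250 bases before to 50 bases after each annotated start. Windows were matched by symbol for 37 of the 44 members. The element has 2 arms of 10 bases with 0 to 1 bases between them, both strands were searched, and the 4-base core of each arm had to be intact. With at most 2 mismatches, 2 of 37 members (5.41%) held a match, compared with 97 of 27305 genes (0.355%) over all windows. With no mismatch allowed, 1 member (2.7%) and 7 of all genes (0.0256%) held one. With at most 3 mismatches, 3 members (8.11%) and 278 of all genes (1.02%) held one. Of the well studied p53 targets used for scale below, 21 had a window. Among these 21, 2 (9.52%) held a match with at most 2 mismatches, 1 (4.76%) with none and 4 (19%) with at most 3. The shares of the members were lower at each of these cuts. The letters CATG, which can form the core of an arm and so overlap the element, stood in 37 of the 65 member windows (56.9%) and in 54.9% of all windows. The 3 members with a match at up to 3 mismatches are printed because each match lies beside the start of a gene whose response is given below. They are AEN on the plus strand at chr15:88621266-88621364, PTCHD4 on the minus strand at chr6:48111173-48111257 and ASTN2 on the minus strand at chr9:116687191-116687286. Each is written 5′ to 3′ on the strand of the gene, and capitals mark the match, mismatches included.
AEN: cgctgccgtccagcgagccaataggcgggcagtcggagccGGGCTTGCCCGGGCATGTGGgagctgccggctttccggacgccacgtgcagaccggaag
PTCHD4: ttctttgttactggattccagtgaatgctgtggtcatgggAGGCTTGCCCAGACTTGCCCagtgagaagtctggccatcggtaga
ASTN2: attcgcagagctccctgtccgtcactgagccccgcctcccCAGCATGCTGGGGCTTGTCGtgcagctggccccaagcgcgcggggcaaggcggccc
The element of PTCHD4 had 0 mismatches and ended 1 base before the annotated start. That of AEN had 2 mismatches and lay 34 to 15 bases before the start, and that of ASTN2 had 3 mismatches and lay 31 to 12 bases before one of its annotated starts. A match describes these letters and was not tested for binding.

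The libraries held 28390405 to 38010075 reads over genes. Levels below are counts scaled to the size of each library (CPM). The marker sums in this paragraph are scaled to total reads alone, so they are not on the same scale as the other CPM values. FAM193A itself was read in every library, at 44.1 and 40.0 CPM under DMSO and 50.4 and 44.5 CPM under Nutlin-3a in WT cells, and at 34.8 and 32.2 and then 42.0 and 38.1 CPM in KO cells. Within each treatment both KO libraries lay below both WT libraries, by a small margin, and total reads do not tell an intact from a disrupted transcript. All 12 neuroblastoma markers were read, with summed levels of 4830 to 4890 CPM under DMSO and 3260 to 3380 CPM under Nutlin-3a in WT cells, and of 4720 to 4790 and then 4190 to 4420 CPM in KO cells. Of the 5 blood and immune markers CD3E was at 0 throughout and the sum was at most 2.15 CPM. The 3 endothelial markers summed to 2.82 to 3.06 CPM in WT and 6.68 to 7.87 CPM in KO libraries. Liver, muscle and melanocyte markers, 3 of each, summed to at most 1.63 CPM, with MYH7 and TYR at 0. The 5 epithelial markers, nearly all KRT8, summed to 268 to 356 CPM in WT and 101 to 123 CPM in KO libraries. The 5 fibroblast markers, mostly collagens, summed to 5000 to 5780 CPM in WT and 6650 to 7500 CPM in KO libraries. The part of these marker differences in the results was not tested. Of the 8 libraries 3 stood apart through single genes at more than 20 times the level of the partner library, 3 such genes in WT DMSO replicate 2, 15 in replicate 1 of WT Nutlin-3a and 5 in replicate 2 of KO Nutlin-3a, none of them a member.

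The first question was which of the 44 genes responded to Nutlin-3a in each genotype. In wild type cells 43 of 44 members rose, against 29.4% of all tested genes, and 0 fell, against 29.2%. Of these, 38 rose by more than 2-fold, against 8.3% of all tested genes. The median log2 change of the members was 1.74 and that of all genes was 0.02. In knockout cells 41 of 44 members rose, against 18.1% of all tested genes, and 0 fell, against 20.6%. More than 2-fold rises numbered 29, against 4.26% of all tested genes, and the median log2 change was 1.21, beside -0.01 for all genes. The same 41 genes rose in both genotypes, against 14.8% of all tested genes. SPATA18 and PRDM1 were called in the wild type alone, and TP53I13 in neither genotype. Every member called in either response had non-overlapping DMSO and Nutlin-3a libraries. With 2 libraries a group a call nearly requires this, so it adds no support to the calls. The summed level of the 44 members was 1596 and 1573 CPM under DMSO and 5419 and 5477 CPM under Nutlin-3a in WT cells, and 1515 and 1503 and then 3849 and 3739 CPM in KO cells. The pooled level was thus close between the genotypes under vehicle and separated under Nutlin-3a. RNA was measured in bulk, so fewer responding cells and less RNA per cell cannot be told apart.

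**Figure D1:**
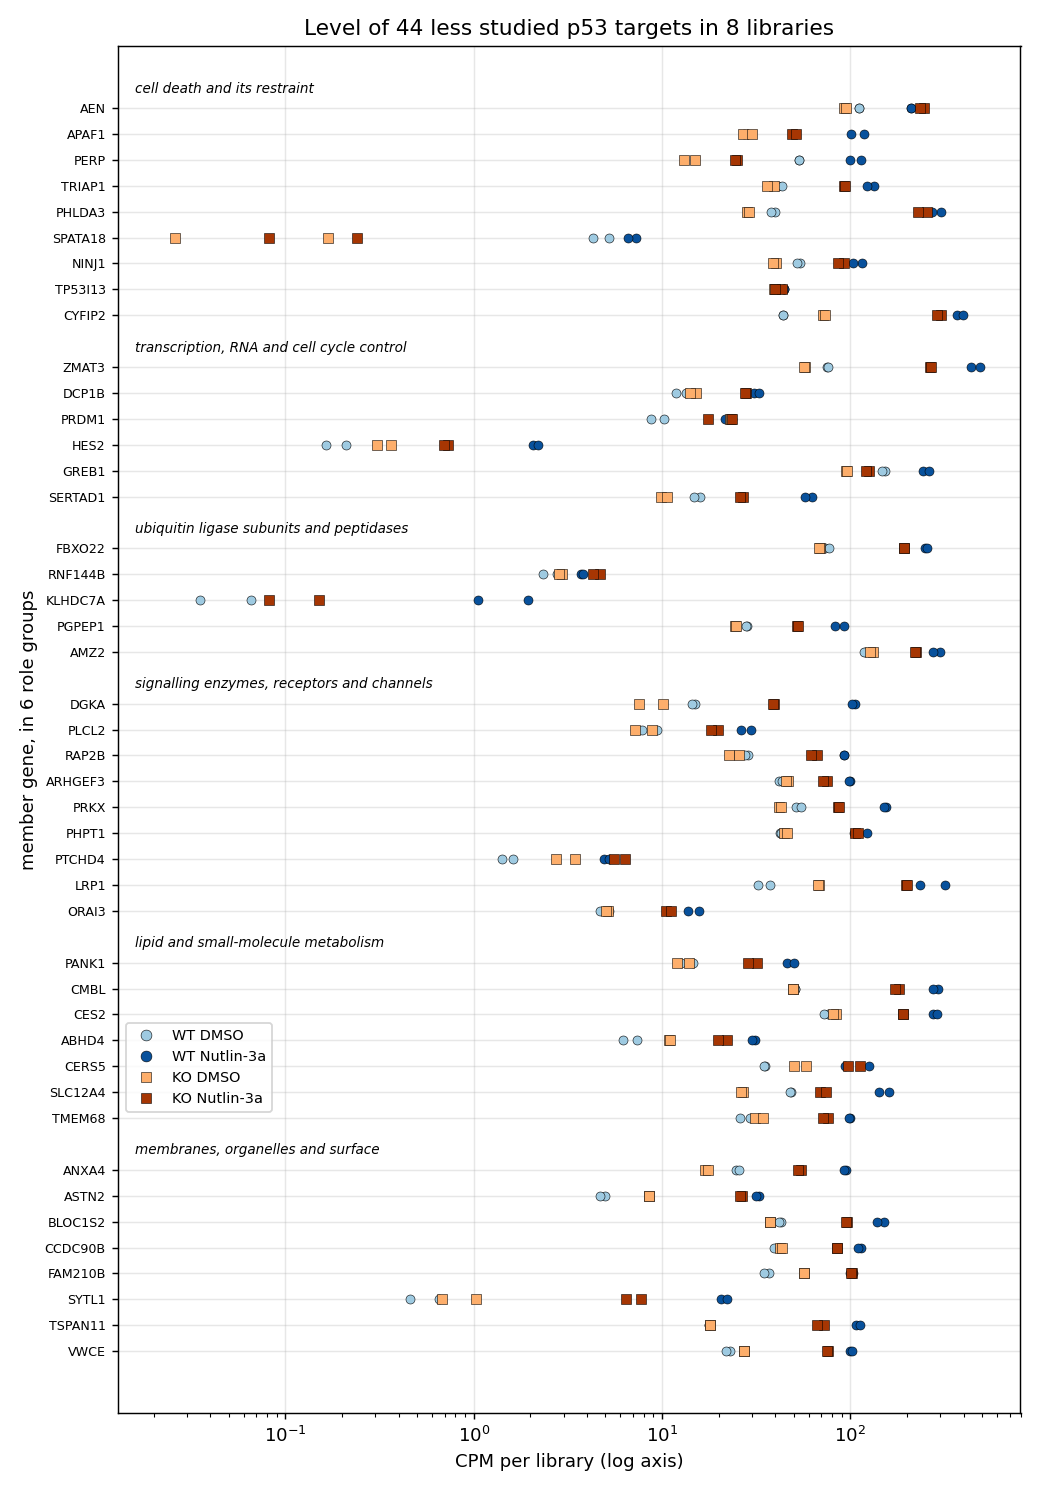
Level of each of the 44 genes in each of the 8 libraries, in CPM on a log axis, with circles for WT, squares for KO, pale fill for DMSO and dark fill for Nutlin-3a. Dark symbols lie to the right of pale ones for most genes, TP53I13 shows all groups between 39.2 and 44.5 CPM, and SPATA18 and PERP show the KO libraries far to the left. KLHDC7A had 0 reads in both KO DMSO libraries, which are not drawn.

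The second question was whether the response differed between the genotypes. The difference was tested as the log2 change in KO minus the log2 change in WT. It was negative and passed the test for 33 of 44 members, against 13.4% of all tested genes, and positive for 1 member, AEN, against 14.2% of all tested genes. Without WT Nutlin-3a replicate 1 it was positive for 3 members, with PHLDA3 and NINJ1 added. The median difference was -0.50 over the members and -0.00 over all genes. Of the 41 members that rose in both genotypes, 32 rose less in KO, 1 rose more and 8 had no called difference. Over all tested genes, 2353 rose in both genotypes, and 926 of these rose less in KO (5.83% of all tested genes). For 40 of the 41 members, those with reads in every group (without KLHDC7A), the log2 rise in KO was a median of 68.8% of that in WT. The share ran from 30.9% for HES2 to 149% for AEN and was below that of the wild type for 36 genes. The low end also held APAF1 (41.5%), ABHD4 (43.3%), GREB1 (49.9%) and LRP1 (51.9%). Above the wild type, beside AEN, stood RNF144B (115%), NINJ1 (112%) and PHLDA3 (107%), none with a called difference.

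**Figure D2:**
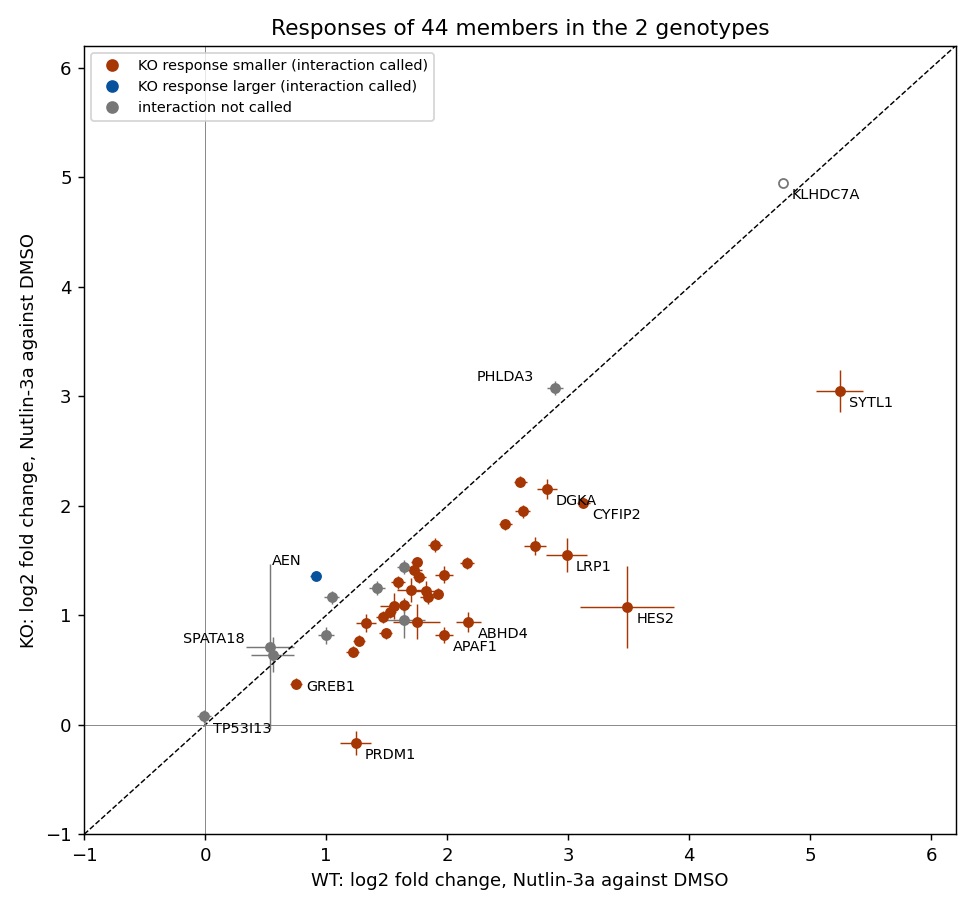
Log2 change under Nutlin-3a in WT (x axis) and in KO cells (y axis) for each of the 44 genes, with bars of 1 standard error, colours for the call on the difference and a dashed line where the responses are equal. Most genes lie right of zero and below the line, AEN lies above it, and TP53I13 lies near the origin. KLHDC7A is drawn open and without error bars because it had 0 reads in KO DMSO, so its place depends on the prior count of the fit.

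Among the 9 genes of cell death and its restraint, 8 rose in WT, against 29.4% of all tested genes, and 7 in KO, against 18.1%. Of the 9, 3 rose less in KO and 1 rose more. Over all tested genes the difference was negative for 13.4% and positive for 14.2%. These shares also apply to the role groups below, which were drawn up with earlier results known and are a description only. AEN, a nuclease that degrades DNA and RNA during apoptosis, was read at 111 and 111 CPM under DMSO and 209 and 210 CPM under Nutlin-3a in WT cells, and at 92.0 and 94.4 and then 244 and 235 CPM in KO cells. The KO libraries were thus the lowest under vehicle and the highest under Nutlin-3a. Its log2 rise was 0.91 ± 0.05 (SE) in WT and 1.36 ± 0.04 in KO, and the difference was 0.45 ± 0.06 (adjusted p = 3.31e-05). APAF1, the scaffold of the apoptosome that activates caspase-9, was read at 28.7 and 27.1 CPM in WT DMSO and at 26.8 and 30.0 in KO DMSO, which overlapped. Under Nutlin-3a it reached 101 and 118 CPM in WT and 49.2 and 51.2 CPM in KO, with no overlap. The log2 rise was 1.97 ± 0.08 in WT and 0.82 ± 0.08 in KO, a difference of -1.15 ± 0.11 (adjusted p = 6.38e-07). CYFIP2, a subunit of the actin-regulating WAVE complex, was read at 44.1 and 43.9 CPM under DMSO and 370 and 397 CPM under Nutlin-3a in WT cells, and at 72.0 and 72.9 and then 301 and 289 CPM in KO cells. It started higher in KO and ended lower, with log2 rises of 3.12 ± 0.05 and 2.03 ± 0.05 and a difference of -1.10 ± 0.07 (adjusted p = 4.67e-09).

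PHLDA3, an inhibitor of AKT signalling, was read at 39.6 and 37.7 CPM under DMSO and 302 and 270 CPM under Nutlin-3a in WT cells, and at 28.2 and 28.9 and then 254 and 227 CPM in KO cells. Its log2 rise of 2.89 ± 0.07 in WT stood beside 3.08 ± 0.07 in KO, and the difference of 0.19 ± 0.09 did not pass the test (adjusted p = 0.152). Without WT Nutlin-3a replicate 1 the difference was 0.27 and passed (adjusted p = 0.00599). NINJ1, a surface protein that ruptures the plasma membrane of dying cells, was read at 54.1 and 52.0 CPM under DMSO and 115 and 104 CPM under Nutlin-3a in WT cells, and at 40.4 and 38.7 and then 92.0 and 85.4 CPM in KO cells. It rose by a log2 value of 1.05 in WT and 1.17 in KO, with a difference of 0.12 (adjusted p = 0.325) that passed without WT Nutlin-3a replicate 1 (0.19, adjusted p = 0.0426). TRIAP1, a mitochondrial lipid-transfer protein that restrains apoptosis, was read at 41.5 and 43.1 CPM under DMSO and 133 and 122 CPM under Nutlin-3a in WT cells, and at 39.4 and 36.3 and then 92.9 and 93.3 CPM in KO cells. Its log2 rises were 1.59 and 1.30, and the difference of -0.29 passed the test (adjusted p = 0.0124), but not without replicate 1 of WT DMSO (adjusted p = 0.0679) or of KO DMSO (0.101).

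PERP, a membrane protein of desmosomes, and SPATA18, which takes part in mitochondrial quality control, were the 2 members of the group with large differences between the genotypes under both treatments. PERP was read at 53.6 and 53.6 CPM under DMSO and 114 and 100 CPM under Nutlin-3a in WT cells, and at 15.0 and 13.0 and then 24.9 and 24.3 CPM in KO cells. Even the Nutlin-3a libraries of the knockout lay below the vehicle libraries of the wild type. The log2 rises were 1.00 ± 0.07 and 0.82 ± 0.08, with a difference of -0.18 ± 0.11 that did not pass the test (adjusted p = 0.22). Without WT Nutlin-3a replicate 2 it was -0.27 and passed (adjusted p = 0.0233). SPATA18 had 160 and 123 reads under DMSO and 221 and 184 under Nutlin-3a in WT cells, but 6 and 1 and then 3 and 8 reads in KO cells. The knockout libraries were near 0 under both treatments and overlapped. In WT the log2 rise was 0.54 ± 0.20 (adjusted p = 0.0255). That rise did not pass when WT DMSO replicate 2 (0.40, adjusted p = 0.203) or replicate 1 of WT Nutlin-3a (0.49, adjusted p = 0.0761) was left out. With all libraries it also did not pass with the DESeq2 Wald test (adjusted p = 0.0645). Nor did it with limma on log2(RPKM + 0.1) (adjusted p = 0.072, and 0.121 without a filter). The call was kept in 12 of 18 alternative settings. In KO the value was 0.71 ± 0.76 (adjusted p = 0.494), a standard error that leaves the difference between the responses (0.18 ± 0.72) without a usable direction. TP53I13, a protein named for its induction by p53, was read at 44.1 and 44.4 CPM under DMSO and 43.4 and 44.5 CPM under Nutlin-3a in WT cells, and at 39.9 and 39.2 and then 43.3 and 39.9 CPM in KO cells. The WT DMSO and Nutlin-3a libraries overlapped, and the log2 values were -0.01 in WT (adjusted p = 0.904) and 0.08 in KO (adjusted p = 0.339).

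All 6 genes of transcription, RNA and cell cycle control rose in WT, 5 rose in KO and all 6 differences were negative and passed the test. ZMAT3, a zinc finger protein that binds RNA and regulates splicing, was read at 75.5 and 76.4 CPM under DMSO and 439 and 485 CPM under Nutlin-3a in WT cells, and at 57.3 and 56.4 and then 264 and 267 CPM in KO cells. The KO libraries were lower under both treatments, and the log2 rises were 2.60 ± 0.05 and 2.22 ± 0.05. PRDM1, a transcriptional repressor best known from plasma cell differentiation, was read at 10.2 and 8.78 CPM under DMSO and 21.5 and 23.5 CPM under Nutlin-3a in WT cells, and at 23.0 and 23.2 and then 23.5 and 17.6 CPM in KO cells. The untreated knockout was already at the level of the treated wild type. Its log2 rise in WT was 1.24 ± 0.13 (adjusted p = 5.67e-07), the value in KO was -0.17 ± 0.11 (adjusted p = 0.258), and the difference was -1.41 ± 0.17 (adjusted p = 1.96e-05). The 2 treated knockout libraries disagreed: without KO Nutlin-3a replicate 1 the KO value was -0.39 and passed (adjusted p = 0.0137), and without KO Nutlin-3a replicate 2 it was 0.02 (adjusted p = 0.933).

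HES2, a helix-loop-helix repressor, had few reads, 5 and 6 under DMSO and 63 and 61 under Nutlin-3a in WT cells, and 11 and 14 and then 27 and 23 in KO cells. The Nutlin-3a libraries stood above the DMSO libraries in both genotypes and furthest in WT. The log2 rise was 3.49 ± 0.39 in WT and 1.08 ± 0.38 in KO (adjusted p = 0.0302), and the difference was -2.41 ± 0.58 (adjusted p = 0.00454). The rise in KO did not pass when any 1 of the 4 KO libraries was left out, without KO DMSO replicate 1 (adjusted p = 0.155) or 2 (0.0941) and without KO Nutlin-3a replicate 1 (0.125) or 2 (0.0835). GREB1, a hormone-responsive coregulator, was read at 152 and 148 CPM under DMSO and 242 and 262 CPM under Nutlin-3a in WT cells, and at 95.1 and 95.4 and then 126 and 121 CPM in KO cells. The treated knockout did not reach the level of the untreated wild type, and the log2 rises were 0.75 and 0.37. SERTAD1, a regulator of cyclin-dependent kinase and E2F activity, went from 15.8 and 14.7 to 62.4 and 57.5 CPM in WT and from 9.89 and 10.6 to 27.0 and 25.8 CPM in KO, log2 rises of 1.97 and 1.37. DCP1B, a cofactor of mRNA decapping, went from 13.4 and 11.8 to 30.9 and 32.7 CPM in WT and from 15.1 and 14.1 to 28.0 and 27.6 CPM in KO, rises of 1.33 and 0.93. Their difference of -0.40 (adjusted p = 0.0154) did not pass without WT DMSO replicate 2 (adjusted p = 0.102) or KO DMSO replicate 1 (0.0832). The largest adjusted p among the WT rises of this group was 5.67e-07, that of PRDM1.

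The 5 ubiquitin ligase subunits and peptidases rose in both genotypes, and 3 of them rose less in KO. FBXO22, the substrate receptor of an SCF ubiquitin ligase, was read at 73.3 and 76.8 CPM under DMSO and 250 and 254 CPM under Nutlin-3a in WT cells, and at 68.9 and 68.2 and then 192 and 193 CPM in KO cells, with log2 rises of 1.75 and 1.49. PGPEP1, which removes pyroglutamate from peptides, was read at 28.3 and 27.9 CPM under DMSO and 83.0 and 92.3 CPM under Nutlin-3a in WT cells, and at 24.5 and 24.7 and then 51.8 and 52.9 CPM in KO cells, with rises of 1.64 and 1.09. AMZ2, a zinc metallopeptidase, was read at 120 and 118 CPM under DMSO and 300 and 275 CPM under Nutlin-3a in WT cells, and at 132 and 127 and then 222 and 221 CPM in KO cells, with rises of 1.27 and 0.77. These 3 genes shared non-overlapping treated libraries, with KO below WT. RNF144B, a ubiquitin ligase, was read at 2.33 and 2.77 CPM under DMSO and 3.69 and 3.81 CPM under Nutlin-3a in WT cells, and at 2.93 and 2.83 and then 4.67 and 4.30 CPM in KO cells. Its rises of 0.56 ± 0.18 and 0.64 ± 0.16 differed by 0.08 ± 0.24 (adjusted p = 0.834), and the WT rise did not pass without WT DMSO replicate 1 (0.46, adjusted p = 0.0881).

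KLHDC7A, a protein with kelch repeats, was the least read member per length in every group. Its reads were 2 and 1 under DMSO and 32 and 54 under Nutlin-3a in WT cells, and 0 and 0 and then 3 and 5 in KO cells. The WT ratio was 29.0-fold, with a 95% interval from counting error of 9.61 to 144. In KO cells the ratio was 2.83-fold when 3 reads over both DMSO libraries were taken as the floor for 0. Counting error of the 8 reads against 0 allowed a ratio down to 1.81. Both rises were called (adjusted p = 5.78e-06 and 0.0227), but that in KO did not pass without KO DMSO replicate 1 (adjusted p = 0.0851), KO DMSO replicate 2 (0.0984) or KO Nutlin-3a replicate 2 (0.104). The KO rise also did not pass with limma on log2(RPKM + 0.1) (adjusted p = 0.375, and 0.398 without a filter) or on log2(RPKM + 1) (0.717). With 0 reads in KO DMSO, the size of the difference between its responses depends on the prior count, and nothing is read from that size.

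All 9 signalling enzymes, receptors and channels rose in both genotypes, and 8 of them rose less in KO. LRP1, a large endocytic receptor for lipoproteins and proteases, was read at 37.2 and 32.5 CPM under DMSO and 235 and 318 CPM under Nutlin-3a in WT cells, and at 68.3 and 67.5 and then 198 and 200 CPM in KO cells. It was the member of the group with the largest difference, from log2 rises of 2.99 ± 0.17 and 1.55 ± 0.15 to a difference of -1.44 ± 0.22 (adjusted p = 0.00745). DGKA, a kinase that converts diacylglycerol to phosphatidic acid, was read at 14.9 and 14.4 CPM under DMSO and 105 and 102 CPM under Nutlin-3a in WT cells, and at 10.1 and 7.55 and then 39.5 and 38.9 CPM in KO cells. Its knockout libraries were lower under both treatments, and its rises were 2.82 ± 0.08 and 2.16 ± 0.09. PTCHD4, a patched-like protein that represses Hedgehog signalling and holds the element without mismatch printed above, was read at 1.61 and 1.40 CPM under DMSO and 4.91 and 5.25 CPM under Nutlin-3a in WT cells, and at 2.74 and 3.45 and then 6.38 and 5.53 CPM in KO cells. The knockout was higher under vehicle, and the libraries lay close together under Nutlin-3a. Its rises of 1.75 ± 0.19 and 0.94 ± 0.16 differed by -0.80 ± 0.25 (adjusted p = 0.0247). That call did not pass without WT DMSO replicate 1 (adjusted p = 0.0501), WT DMSO replicate 2 (0.113), KO DMSO replicate 2 (0.138) or KO Nutlin-3a replicate 2 (0.0845).

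PRKX, a cyclic AMP-dependent type kinase, went from 51.7 and 54.5 to 154 and 152 CPM in WT and from 42.0 and 42.6 to 85.4 and 87.2 CPM in KO, log2 rises of 1.52 and 1.03. ARHGEF3, a guanine nucleotide exchange factor, went from 41.8 and 43.3 to 99.9 and 98.2 CPM in WT and from 46.8 and 45.4 to 75.0 and 71.4 CPM in KO, rises of 1.22 and 0.67. RAP2B, a small GTPase, went from 28.5 and 27.5 to 92.4 and 92.7 CPM in WT and from 22.7 and 25.6 to 66.6 and 62.1 CPM in KO, rises of 1.73 and 1.41. In these 3 genes the treated knockout libraries stood between the vehicle and the treated wild type libraries. PLCL2, a catalytically inactive relative of phospholipase C, went from 7.82 and 9.45 to 26.3 and 29.6 CPM in WT and from 7.21 and 8.87 to 19.7 and 18.1 CPM in KO, rises of 1.70 and 1.23. ORAI3, a subunit of store-operated calcium channels, went from 5.22 and 4.70 to 15.7 and 13.7 CPM in WT and from 5.17 and 5.03 to 10.5 and 11.1 CPM in KO, rises of 1.56 and 1.08. The differences of PLCL2 and ORAI3 (adjusted p = 0.0392 and 0.0431) lay closest to the threshold. For PLCL2 it did not pass without WT DMSO replicate 1 (adjusted p = 0.206), WT Nutlin-3a replicate 2 (0.066), KO DMSO replicate 2 (0.266) or either KO Nutlin-3a library (0.0559 and 0.133). For ORAI3 it did not pass without any 1 of the libraries other than WT Nutlin-3a replicate 2 (adjusted p from 0.0606 to 0.166), and for RAP2B it did not pass without WT DMSO replicate 2 (0.0732), KO DMSO replicate 2 (0.139) or KO Nutlin-3a replicate 2 (0.078). PHPT1, a phosphatase of phosphohistidine, was read at 42.3 and 42.6 CPM under DMSO and 122 and 105 CPM under Nutlin-3a in WT cells, and at 44.5 and 46.1 and then 106 and 110 CPM in KO cells, so the treated libraries of the genotypes overlapped. Its rises of 1.42 ± 0.06 and 1.25 ± 0.06 had no called difference (-0.17, adjusted p = 0.192), except without WT Nutlin-3a replicate 2 (-0.27, adjusted p = 0.00275).

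All 7 genes of lipid and small-molecule metabolism rose in both genotypes, and 5 rose less in KO. ABHD4, a lipase in the synthesis of N-acylethanolamines, was read at 7.33 and 6.18 CPM under DMSO and 31.2 and 29.9 CPM under Nutlin-3a in WT cells, and at 10.9 and 11.0 and then 22.2 and 19.8 CPM in KO cells. It was higher in KO under vehicle and lower under Nutlin-3a, with log2 rises of 2.17 ± 0.10 and 0.94 ± 0.09 and a difference of -1.23 ± 0.14 (adjusted p = 2.78e-06). CES2, a carboxylesterase, showed the same order at 76.2 and 72.5 CPM under DMSO and 275 and 288 CPM under Nutlin-3a in WT cells, and at 83.9 and 81.2 and then 189 and 189 CPM in KO cells, with rises of 1.92 and 1.20. CMBL, a hydrolase of cyclic esters, was read at 50.9 and 50.9 CPM under DMSO and 292 and 276 CPM under Nutlin-3a in WT cells, and at 49.6 and 49.4 and then 181 and 172 CPM in KO cells. Its genotypes were close under vehicle and separated under Nutlin-3a, with rises of 2.48 and 1.83. PANK1, which starts coenzyme A synthesis, was read at 14.5 and 12.7 CPM under DMSO and 46.2 and 50.0 CPM under Nutlin-3a in WT cells, and at 13.9 and 12.1 and then 32.0 and 28.5 CPM in KO cells, with rises of 1.82 and 1.22. TMEM68, an acyltransferase of the endoplasmic reticulum, was read at 29.2 and 25.8 CPM under DMSO and 99.0 and 98.5 CPM under Nutlin-3a in WT cells, and at 31.2 and 34.4 and then 75.9 and 71.8 CPM in KO cells, with rises of 1.84 and 1.17. Both were highest in the treated wild type libraries.

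SLC12A4, a cotransporter of potassium and chloride, was read at 48.6 and 47.7 CPM under DMSO and 141 and 160 CPM under Nutlin-3a in WT cells, and at 26.7 and 26.1 and then 69.3 and 74.0 CPM in KO cells. The knockout was lower under both treatments, while the rises of 1.64 ± 0.06 and 1.44 ± 0.06 had no called difference (-0.21, adjusted p = 0.0969), except without WT Nutlin-3a replicate 1 (-0.30, adjusted p = 0.00178). CERS5, a ceramide synthase, was read at 35.1 and 34.9 CPM under DMSO and 125 and 93.8 CPM under Nutlin-3a in WT cells, and at 58.1 and 50.5 and then 113 and 97.0 CPM in KO cells. The 2 WT Nutlin-3a libraries enclosed both KO Nutlin-3a libraries. Its rises were 1.64 ± 0.17 and 0.95 ± 0.16, and the difference of -0.69 ± 0.24 did not pass the test (adjusted p = 0.096). Leaving out WT Nutlin-3a replicate 1 gave -0.47 (adjusted p = 0.0381) and leaving out WT Nutlin-3a replicate 2 gave -0.88 (adjusted p = 0.00429).

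All 8 genes of membranes, organelles and the cell surface rose in both genotypes, and all 8 rose less in KO. SYTL1, a synaptotagmin-like protein that tethers vesicles through Rab27, was read at 0.657 and 0.456 CPM under DMSO and 20.7 and 22.0 CPM under Nutlin-3a in WT cells, and at 1.03 and 0.674 and then 6.41 and 7.72 CPM in KO cells. The vehicle libraries were all at or below 1.03 CPM, and the treated libraries separated by genotype. The log2 rise was 5.24 ± 0.20 in WT, a 37.9-fold rise, and 3.05 ± 0.19 in KO, an 8.28-fold rise. The difference was -2.19 ± 0.35 (adjusted p = 0.000113). ASTN2, an astrotactin of neuronal membranes, was read at 4.96 and 4.70 CPM under DMSO and 32.6 and 31.4 CPM under Nutlin-3a in WT cells, and at 8.50 and 8.51 and then 26.6 and 26.0 CPM in KO cells. The knockout libraries were above the wild type under vehicle and below it under Nutlin-3a, with rises of 2.73 ± 0.09 and 1.63 ± 0.08 and a difference of -1.10 ± 0.13 (adjusted p = 4.34e-06). FAM210B, a mitochondrial membrane protein, was read at 36.9 and 34.9 CPM under DMSO and 103 and 99.1 CPM under Nutlin-3a in WT cells, and at 57.0 and 57.0 and then 102 and 101 CPM in KO cells. Its genotypes differed under vehicle and overlapped under Nutlin-3a, and its rises were 1.49 and 0.83.

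VWCE, a secreted protein with von Willebrand factor type C domains, was read at 22.9 and 22.0 CPM under DMSO and 99.6 and 101 CPM under Nutlin-3a in WT cells, and at 27.3 and 27.1 and then 76.5 and 74.9 CPM in KO cells, with log2 rises of 2.16 and 1.48. TSPAN11, a tetraspanin, was read at 17.8 and 17.7 CPM under DMSO and 107 and 112 CPM under Nutlin-3a in WT cells, and at 18.0 and 18.0 and then 72.4 and 66.3 CPM in KO cells, with rises of 2.62 and 1.95. ANXA4, an annexin that binds membranes in the presence of calcium, was read at 24.7 and 25.5 CPM under DMSO and 95.2 and 92.4 CPM under Nutlin-3a in WT cells, and at 16.8 and 17.6 and then 54.7 and 52.7 CPM in KO cells, with rises of 1.90 and 1.64. The difference of ANXA4 (-0.26, adjusted p = 0.0298) did not pass without either WT DMSO library (0.102 and 0.0559), either KO DMSO library (0.0555 and 0.136) or KO Nutlin-3a replicate 2 (0.098). For VWCE, TSPAN11 and ANXA4 the treated knockout libraries were above the vehicle libraries and below the treated wild type. BLOC1S2, a subunit of a complex that places lysosomes and related organelles, was read at 42.7 and 41.9 CPM under DMSO and 150 and 138 CPM under Nutlin-3a in WT cells, and at 37.3 and 37.6 and then 96.0 and 94.7 CPM in KO cells, with rises of 1.77 and 1.35. CCDC90B, a mitochondrial coiled-coil protein, was read at 39.3 and 42.1 CPM under DMSO and 114 and 110 CPM under Nutlin-3a in WT cells, and at 42.2 and 43.4 and then 84.4 and 84.6 CPM in KO cells, with rises of 1.47 and 0.98. The largest adjusted p among the WT and KO rises of the 8 genes was 2.94e-10, that of SYTL1 in KO.

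**Figure D3:**
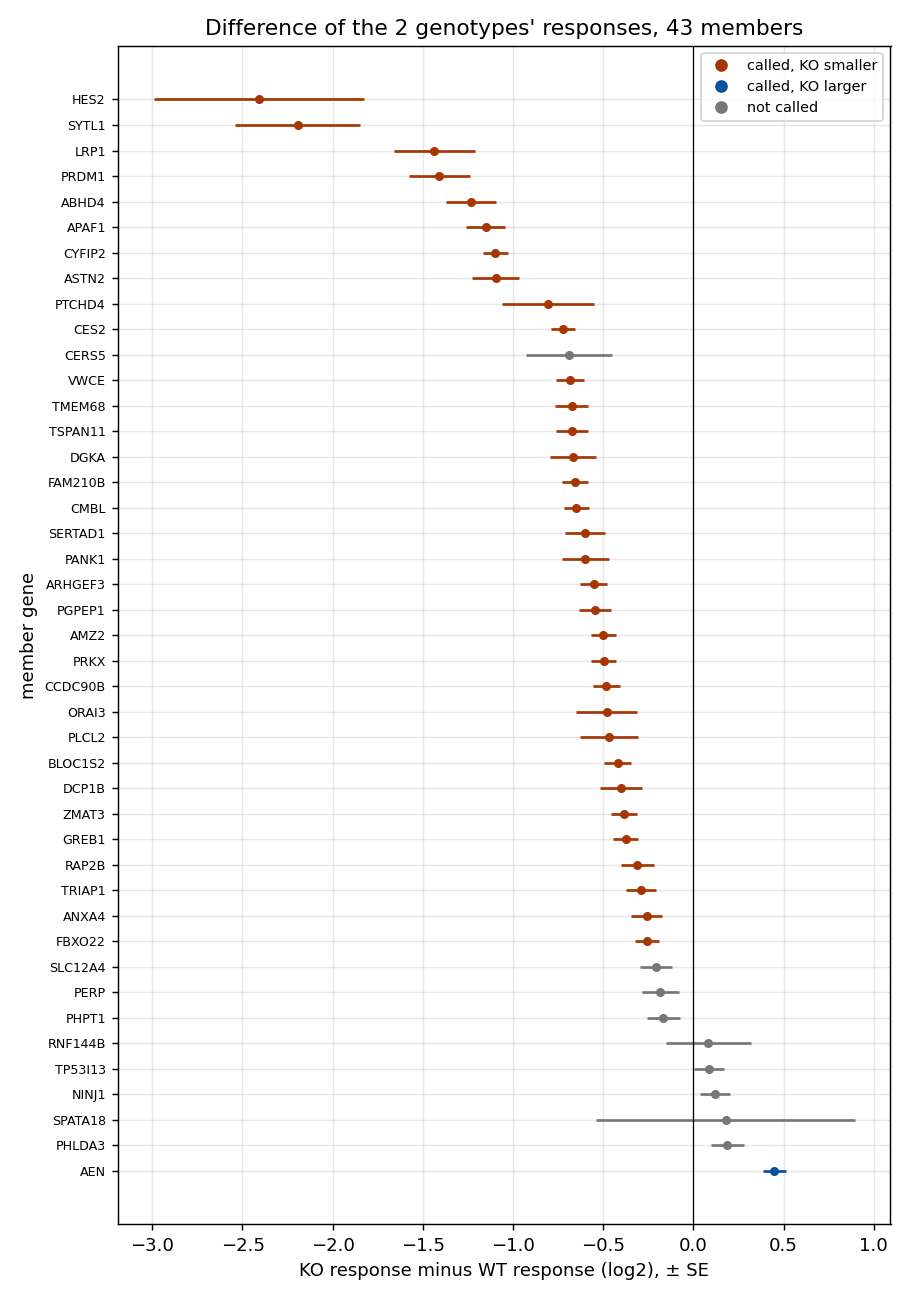
Difference between the responses (log2 change in KO minus log2 change in WT) for 43 genes, with bars of 1 standard error and colours for the call. AEN at 0.45 is the only called gene to the right of 0, and HES2 at -2.41, SYTL1 at -2.19, LRP1 at -1.44 and PRDM1 at -1.41 lie furthest to the left. KLHDC7A is not drawn.

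The third question was how the genotypes differed within each treatment. Under vehicle, 13 members were higher in KO, against 31.4% of all tested genes, and 18 were lower, against 30.1%. The count of higher members is near that background and is no result about the members. It was 8 without WT DMSO replicate 2. The median log2 difference of the 44 members was -0.01. Under Nutlin-3a, 1 member was higher in KO, against 32.7% of all tested genes, and 36 were lower, against 30.4%. The median log2 difference there was -0.50, and that of all genes was 0.02. The comparisons within each treatment and the responses share libraries, so they are not independent of each other. Over both treatments, 16 members were lower in KO in each, against 20.9% of all tested genes. Lower under Nutlin-3a alone were 11, against 7.84%, and 9 were higher under vehicle and lower under Nutlin-3a, against 1.64%. Another 4 were higher under vehicle alone, against 7.24%, and 1 (TP53I13) was lower under vehicle alone, against 7.2%. AEN was lower under vehicle and higher under Nutlin-3a, against 2.02%, and 2 members (PHPT1 and RNF144B) were called in neither.

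The members that were lower in KO under both treatments were led by SPATA18 and PERP. SPATA18 was lower by a log2 difference of -5.61 ± 0.38 under DMSO and -5.43 ± 0.33 under Nutlin-3a. With few reads in KO, these sizes moved to -7.33 and -4.80 without KO DMSO replicate 1 or 2, and to -4.83 and -6.35 without KO Nutlin-3a replicate 1 or 2. PERP was lower by -1.94 ± 0.08 and -2.12 ± 0.07. SLC12A4 followed at -0.87 ± 0.07 and -1.07 ± 0.06, DGKA at -0.74 ± 0.10 and -1.40 ± 0.07, and GREB1 at -0.66 ± 0.05 and -1.03 ± 0.05. SERTAD1 differed by -0.58 and -1.18, ANXA4 by -0.55 and -0.80, ZMAT3 by -0.42 and -0.80, and PRKX by -0.33 and -0.82. The largest adjusted p among these 9 genes was 2.57e-05, that of PRKX under DMSO.

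The 9 members that were higher in KO under vehicle and lower under Nutlin-3a were CYFIP2, DCP1B, AMZ2, LRP1, CES2, ABHD4, TMEM68, ASTN2 and VWCE. CYFIP2 differed by 0.72 ± 0.05 under DMSO and -0.38 ± 0.05 under Nutlin-3a (adjusted p = 1.16e-09 and 9.96e-07). ABHD4 differed by 0.69 ± 0.11 and -0.54 ± 0.09, ASTN2 by 0.81 ± 0.10 and -0.28 ± 0.07, VWCE by 0.28 ± 0.06 and -0.41 ± 0.05, and CES2 by 0.15 ± 0.05 and -0.57 ± 0.05. In these 5 genes the genotypes changed order between vehicle and Nutlin-3a, but for ASTN2 the value under Nutlin-3a did not pass with limma on log2(RPKM + 0.1) (-0.19, adjusted p = 0.142, and 0.136 without a filter) or on log2(RPKM + 1) (-0.15, adjusted p = 0.0616). The vehicle call of CES2 did not pass without WT DMSO replicate 2 (adjusted p = 0.146) or KO DMSO replicate 1 (0.116). PRDM1, PTCHD4, CERS5 and FAM210B were higher in KO under vehicle alone. PRDM1 differed by 1.28 ± 0.12 under DMSO (adjusted p = 3.11e-07) and -0.12 ± 0.11 under Nutlin-3a (adjusted p = 0.353), and FAM210B by 0.66 ± 0.05 (adjusted p = 4.5e-09) and 0.01 ± 0.05 (adjusted p = 0.91).

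Of the 11 members lower under Nutlin-3a alone, APAF1 differed by -1.12 ± 0.07, SYTL1 by -1.60 ± 0.13, CMBL by -0.69 ± 0.05 and TSPAN11 by -0.66 ± 0.05 in treated cells. The largest adjusted p of these 4 was 5.67e-09. Under vehicle the same genes differed by 0.03 (adjusted p = 0.778), 0.60 (0.124), -0.04 (0.509) and 0.02 (0.845). AEN differed by -0.25 ± 0.05 under DMSO (adjusted p = 0.000101) and 0.20 ± 0.04 under Nutlin-3a (adjusted p = 0.000693), the one member whose order changed from lower to higher.

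**Figure D4:**
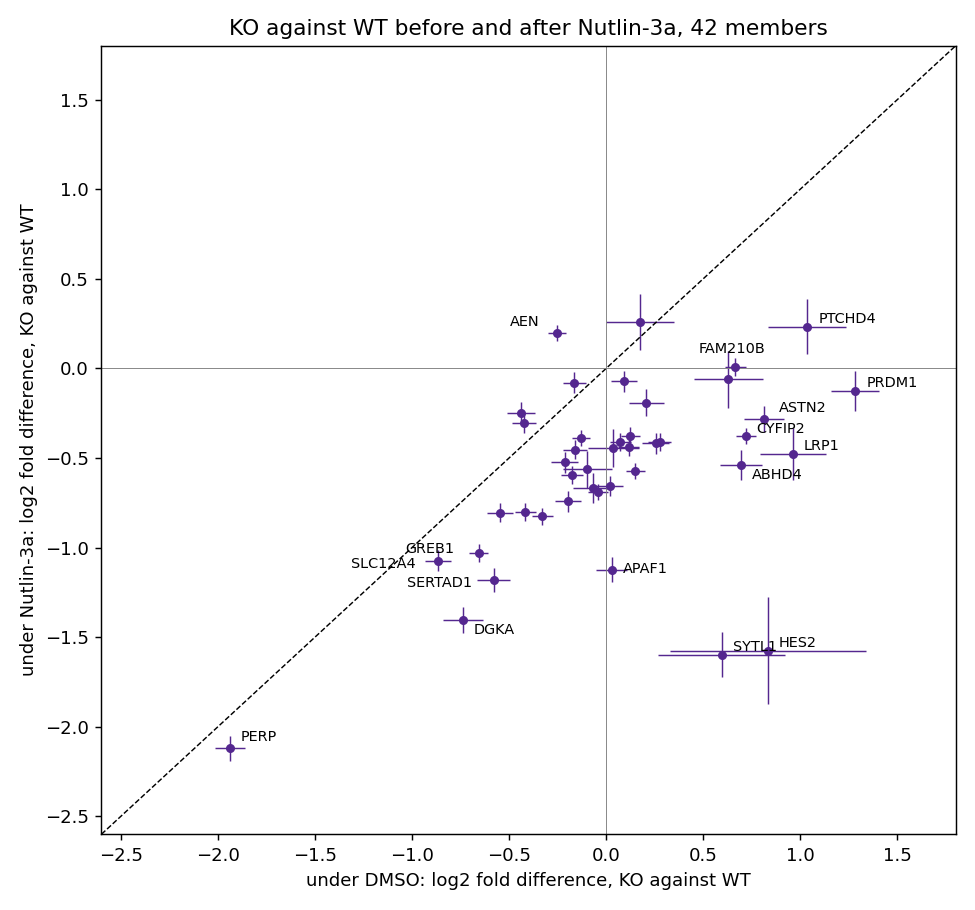
Log2 difference of KO against WT under DMSO (x axis) and under Nutlin-3a (y axis) for 42 genes, with bars of 1 standard error and a dashed line of equal differences. Most genes lie below the line, AEN lies above 0 on the y axis and below 0 on the x axis, and PERP is at the lower left. SPATA18 and KLHDC7A are not drawn.

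Per length, in reads scaled to gene length and library size (RPKM), PHLDA3 moved from position 7 among the 44 genes in WT DMSO (23.7 and 22.4 RPKM) to position 1 in WT Nutlin-3a (180 and 162 RPKM). In KO it moved from position 9 (17.6 and 18.0 RPKM) to position 1 (163 and 144 RPKM). AMZ2 led both vehicle groups, with 59.0 and 57.9 RPKM in WT DMSO and 68.0 and 65.2 in KO DMSO. It was at position 2 in both treated groups, with 147 and 136 RPKM in WT Nutlin-3a and 117 and 115 in KO Nutlin-3a. The WT Nutlin-3a libraries of PHLDA3 and AMZ2 did not overlap. AEN, at position 4 in KO DMSO with 30.0 and 30.7 RPKM, stayed at position 4 in KO Nutlin-3a with 81.8 and 78.0 RPKM, and in WT it went from position 4 to position 7. TP53I13, which did not respond, went from position 5 to 17 in WT and from 6 to 14 in KO.

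A list of 25 well studied p53 targets gives the scale of these responses. It was chosen with earlier results of these data known and is a description only. All 25 rose in WT, against 29.4% of all tested genes, with a median log2 change of 2.85. In KO 24 rose, against 18.1%, with a median of 2.32. SFN was the exception in KO (adjusted p = 0.109). The difference between the responses was negative for 17, against 13.4% of all tested genes, and positive for 2 (DDB2 and TNFRSF10B), against 14.2%. Its median was -0.43, beside -0.50 for the less studied targets. The well studied targets rose more in WT (median 2.85, beside 1.74), so these medians do not compare the share of the rise that was lost. KO against WT under DMSO, 6 of the 25 were higher, against 31.4% of all tested genes, and 11 lower, against 30.1%. Under Nutlin-3a 1 was higher, against 32.7%, and 19 lower, against 30.4%. The 5 with the smallest p in WT were CDKN1A, FDXR, TP53I3, MDM2 and TP53INP1, with log2 rises of 5.39, 4.79, 4.71, 4.61 and 4.49. The cyclin-dependent kinase inhibitor CDKN1A differed between the responses by -0.27 (adjusted p = 0.00942) and MDM2 by -1.23. Among the less studied genes only SYTL1, with a rise of 5.24, lay in the range of these 5, apart from KLHDC7A, for which the counting interval is given above.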

How the data were processed

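Polyadenylated RNA of 8 CHP212 libraries, 2 in each of 4 groups, was analysed from 2 tables, one of read counts per gene and one of RPKM, as deposited by the authors. Per the submitters' processing notes, the build was GRCh37 (hg19) and the tools included HTSeq 0.8.0, TopHat2 2.1.1 with Bowtie2 2.2.9.0, Picard 2.9.4 and SAMtools 1.5. Which gene models were counted, and with which strand option, is not given here, so reads of overlapping genes may be shared.

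Groups came from the sample titles. The deposited counts were filtered with filterByExpr (minimum count 10), which left 15879 of 25369 genes, scaled by TMM and fitted with 1 mean per group in edgeR 4.0.16 (R 4.3.3). Each of the 5 comparisons used the robust quasi-likelihood F test with Benjamini-Hochberg adjustment over all tested genes and a threshold of 0.05. The fit left 4 residual degrees of freedom and a common biological coefficient of variation of 0.0424. CPM values are TMM-scaled, except the marker sums, which used total reads without TMM factors. The log2 changes carry a prior count of 0.125. Each standard error (SE) is the absolute log2 change divided by the square root of F. It was not fitted directly and is approximate. The RPKM values were used as deposited for the order per length and, with limma 3.58.1 on log2(RPKM + 0.1) or log2(RPKM + 1), as alternatives. DESeq2 1.42.0, other scalings, no filter, fits of 4 libraries, a replicate block and omitted libraries were also tried.

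The members, their role groups, the well studied targets and the marker lists were chosen with earlier results of these data known. All members are named with a level. Their responses and the difference are given where any of these was called, and genotype differences where called and among the 10 smallest p of the members in the difference or a genotype comparison. Genotype values below the threshold are given beside a called value of the same gene. Intervals and the floor of 3 reads cover counting error only. TIGAR was matched through a synonym. Promoter windows were RefSeq's on GRCh38.p14, a build other than that of the counts, and were joined by symbol only.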

Additional observations from a re-analysis of the deposited data

Results flagged for a closer look

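For 34 of the 44 genes, the response to Nutlin-3a differed between the genotypes by a test of the difference itself (edgeR quasi-likelihood F test, adjusted over 15879 genes). Values are the log2 change in KO minus the log2 change in WT.

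AEN was the positive case at 0.45. In cell death and its restraint the negative cases were APAF1 at -1.15, CYFIP2 at -1.10 and TRIAP1 at -0.29. In transcription, RNA and cell cycle control they were HES2 at -2.41, PRDM1 at -1.41, SERTAD1 at -0.60, DCP1B at -0.40, ZMAT3 at -0.38 (adjusted p = 0.000613) and GREB1 at -0.37 (adjusted p = 0.000476). Among ubiquitin ligase subunits and peptidases they were PGPEP1 at -0.55 (adjusted p = 0.00014), AMZ2 at -0.50 (adjusted p = 2.87e-05) and FBXO22 at -0.26 (adjusted p = 0.0057).

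In signalling, the values were LRP1 at -1.44, PTCHD4 at -0.80, DGKA at -0.67 (adjusted p = 0.000731), ARHGEF3 at -0.55 (adjusted p = 2.1e-05), PRKX at -0.50 (adjusted p = 3.66e-05), ORAI3 at -0.48, PLCL2 at -0.47 and RAP2B at -0.31 (adjusted p = 0.0154). In lipid and small-molecule metabolism they were ABHD4 at -1.23, CES2 at -0.72 (adjusted p = 2.87e-07), TMEM68 at -0.67 (adjusted p = 2.37e-05), CMBL at -0.65 (adjusted p = 1.86e-06) and PANK1 at -0.60 (adjusted p = 0.0019). Among membranes, organelles and surface they were SYTL1 at -2.19, ASTN2 at -1.10, VWCE at -0.69 (adjusted p = 3.26e-06), TSPAN11 at -0.67 (adjusted p = 1.98e-05), FAM210B at -0.66 (adjusted p = 2.36e-06), CCDC90B at -0.48 (adjusted p = 9.02e-05), BLOC1S2 at -0.42 (adjusted p = 0.000427) and ANXA4 at -0.26 (adjusted p = 0.0298). HES2 and SYTL1, the lowest values, are also 2 of the members with the fewest reads under vehicle.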

How the results depend on the processing

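With 2 libraries a group, single libraries decided several calls. Leaving out 1 library at a time, the members called ranged from 42 to 43 for higher in WT, 39 to 41 for higher in KO, 0 to 1 for lower in KO (PRDM1), 8 to 14 for higher and 13 to 18 for lower in KO under DMSO, 34 to 36 for lower in KO under Nutlin-3a, 28 to 35 for a smaller and 1 to 3 for a larger response in KO, and 1 to 4 for a rise in WT alone. The 8 came without WT DMSO replicate 2 and the 3 without WT Nutlin-3a replicate 1. With the 3 libraries that stand apart left out together, 3 members had a larger response in KO and 2 were higher in KO under Nutlin-3a. Limma on log2(RPKM + 1) also gave 2 higher in KO under Nutlin-3a, and 4 rising in WT alone. The cause was not tested.

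The direction reversed for low or uncalled values alone. The KO response of SPATA18 was 2.43 without KO DMSO replicate 1, -0.094 without KO DMSO replicate 2, -0.21 without KO Nutlin-3a replicate 2 and -0.19 with the 3 libraries left out, and that of PRDM1 was 0.016 without KO Nutlin-3a replicate 2, -0.39 without KO Nutlin-3a replicate 1 and 0.034 with the 3 left out. The difference between the responses of SPATA18 became -0.63, -0.74 and -0.54 in the last 3 of these settings, 1.90 without KO DMSO replicate 1, -0.33 with limma on log2(RPKM + 0.1), filtered or not, and -0.29 on log2(RPKM + 1). That of RNF144B became -0.045 without WT DMSO replicate 2 (0.20 without WT DMSO replicate 1) and -0.021 with the 3 left out. That of KLHDC7A, whose size rests on the prior count or pseudocount because KO DMSO had 0 reads, became -0.34 with DESeq2 (no adjusted p), -1.49 with limma on log2(RPKM + 0.1), filtered or not (adjusted p = 0.0135 and 0.021), -0.32 on log2(RPKM + 1) (adjusted p = 0.0292), -0.31 without WT DMSO replicate 1, -0.20 without WT Nutlin-3a replicate 1, -0.30 without KO Nutlin-3a replicate 2, 0.70 without WT Nutlin-3a replicate 2 and -0.30 with the 3 left out.

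Direction and side of the threshold were kept under every setting by 41 of 43 WT responses, 39 of 43 KO responses and 26 of 43 differences. Among the differences, the calls of ORAI3, PLCL2, PTCHD4, ANXA4, RAP2B, TRIAP1, DCP1B and PANK1 were lost somewhere. The replicate numbers carry no stated pairing, and with the replicate block 43 members rose in WT, 41 in KO, 12 were higher and 18 lower in KO under DMSO, 36 lower under Nutlin-3a, and 34 had a smaller response in KO, CERS5 among them (adjusted p = 0.00013). Same-numbered libraries correlated by -0.02 to 0.23 in their deviations.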
